A study of Mus musculus with 8 samples.

Results

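The genes described here are 9 genes of the ovarian side of gonad fate, listed by name for their known roles in pregranulosa cells. No threshold on a measured value chose them, but the list was drawn up with earlier results of these data known. They are the secreted signals Wnt4, Rspo1 and Fst, the transcription factors Foxl2, Runx1, Irx3 and Irx5, and the oestrogen receptors Esr1 and Esr2. All 9 were found by Ensembl ID among the 46078 gene IDs of the count data. Their levels were followed across mouse embryonic stem cells (ESCs) and 2 populations derived from ESCs, in 8 RNA-sequencing libraries in 4 groups of 2.

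The tcESCs were XY ESCs of C57BL/6 background carrying tesco-cfp, in which the testis enhancer of Sox9 drives a cyan fluorescent protein. The tc;Sf1ESCs were a single G418-selected clone of these cells with constitutive expression of mouse Sf1 (Nr5a1). The SCLCs (Sertoli cell-like cells) were the CFP-positive cells sorted on day 12 of the culture of tc;Sf1ESCs towards testicular somatic cell-like cells (TesLCs). The tod-PGCLCs (primordial germ cell-like cells from testicular organoids) were sorted for GFP on day 6 from organoids that joined TesLCs with epiblast-like cells of an XY Prdm1-gfp line. They therefore came from another ESC line than the other groups, and line and cell type cannot be told apart in comparisons with them. The ESCs were kept in 2i/LIF medium, which contains CHIR99021, an activator of Wnt signalling, and CHIR99021 was also used in the cultures of TesLCs and organoids.

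The early gonad can become a testis or an ovary. In XX supporting cells, Rspo1 and Wnt4 raise beta-catenin signalling, which favours the pregranulosa fate and holds back the Sox9 programme of Sertoli cells. R-spondins act by binding Lgr receptors and so withdrawing the ubiquitin ligases Znrf3 and Rnf43 from Wnt receptors. Foxl2, Runx1 and the oestrogen receptors take part in keeping granulosa cells from turning to the testis side, and Fst, whose product binds activin, is expressed under this programme in the fetal ovary.

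The libraries held 25411033 to 30680191 counts on genes. A count of 3, taken as the floor of detection, corresponded to 0.0978 to 0.118 CPM (counts per 1000000 counts on genes), and such limits cover counting error only. Nr5a1 had 1 and 0 counts in the tcESCs, 52 and 30 in the tc;Sf1ESCs, 341 and 535 in the SCLCs and 6 and 5 in the tod-PGCLCs, so the ESC and SCLC libraries matched their labels for this gene. The counts do not separate the introduced copy from the endogenous gene. Sry, the Y-linked switch to testis fate, had no counts in any of the 8 libraries. The SCLCs were chosen by a Sox9 enhancer, so their Sox9 level of 7.77 and 4.47 CPM is no finding of the comparison. Genes were called with a fold change above 2 and an adjusted p under 0.05 in edgeR's quasi-likelihood test over all genes with a mean count above 10. Of the 12 Sertoli cell markers, 9 were tested against tc;Sf1ESCs, with 8 called higher and none lower, against 24.1% and 18.1% of all genes. Sox9, Cldn11 and Inha passed the filter through their SCLC counts alone, and of the other 6, 5 were called higher. Nr5a1, the introduced gene, is among these 5, and its call cannot be assigned to the endogenous gene. Gata4 stood at 415 and 431 CPM and Vnn1 at 41.2 and 61.8 CPM in the SCLCs. Amh, Dhh and Fshr had at most 22, 5 and 0 counts per SCLC library. In the tod-PGCLCs, 5 of 9 germ cell markers were called higher than in tcESCs, against 18.1% of all genes. Prdm1, on whose reporter these cells were sorted, is among the 5, so its call is no finding of the comparison.

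In the SCLCs, 5 ovarian pathway genes were called higher than in tcESCs: Wnt4, Fst, Runx1, Irx3 and Irx5. Runx1 was the most changed of them, from a mean of 3.89 to 81.8 CPM. Rspo1, the partner of Wnt4 in ovarian fate, was called lower. Foxl2, Esr1 and Esr2 had at most 11 counts in any of the 8 libraries and were not tested. Against tc;Sf1ESCs, the line from which the SCLCs were made, 4 genes were called higher (Wnt4, Fst, Runx1 and Irx3) and none lower, while Rspo1 and Irx5 did not pass the test.

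Of the 9 ovarian pathway genes, 6 passed the filter on mean counts. Wnt4 passed it through its SCLC counts alone, since its counts in the ESC lines were 3 to 7, so the number called describes these genes and supports no statement about the list. Over 16481 genes tested in SCLCs against tcESCs, 24.3% passed as higher and 18.3% as lower. In SCLCs against tc;Sf1ESCs, 24.1% were called higher and 18.1% lower. The main p-values rest on 2 libraries per group, described as biological duplicates. Where a value is given without a library, its group holds a single library, which is assumed to vary like the other groups of the fit. In bulk libraries, fewer cells of a type and less RNA per cell cannot be told apart.

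**Figure D1:**
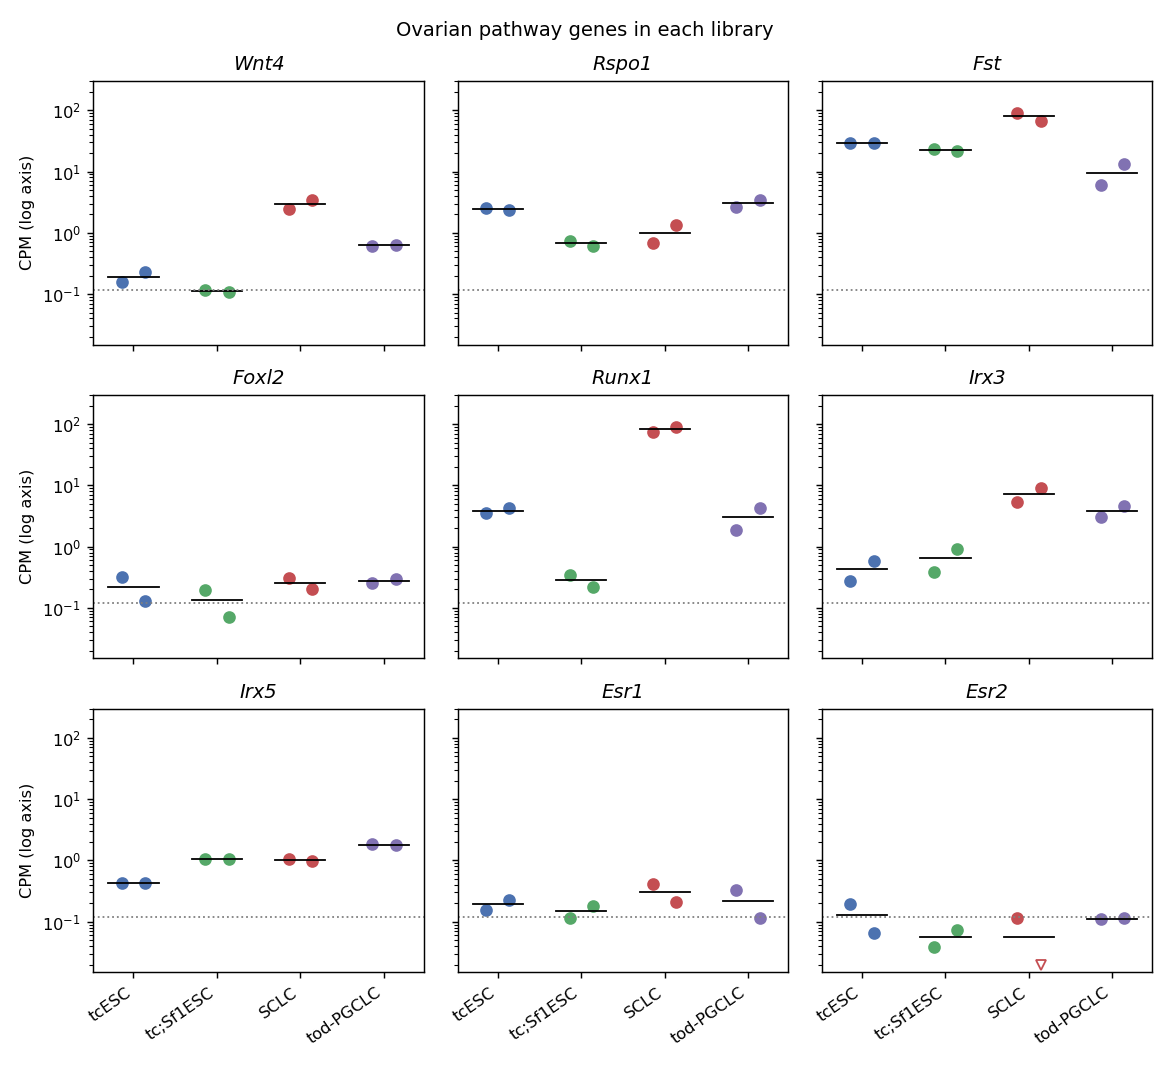
CPM of the 9 genes on a log axis, with each point a library, each black bar the mean of a group, and the dotted line 0.118 CPM, the highest level of 3 counts in any library. The open triangle at the foot of the Esr2 panel is a library with 0 counts. Fst and Runx1 in the SCLCs stood at 67.9 to 90.9 CPM, and all points of Foxl2, Esr1 and Esr2 lay at or below 0.415 CPM.

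Among the secreted signals, Wnt4 (chromosome 4, 137277489 to 137299726, plus strand, GRCm38) encodes the Wnt ligand needed for ovarian development. Its counts were 4 and 7 in the tcESCs, 3 and 3 in the tc;Sf1ESCs, 64 and 100 in the SCLCs and 17 and 17 in the tod-PGCLCs. The SCLC libraries lay above all others, the tod-PGCLC libraries came next, and the tc;Sf1ESC libraries were at the floor. Wnt4 was 15.3-fold higher in SCLCs than in tcESCs (log2 fold change 3.94, SE 0.37, edgeR adjusted p = 6.4e-05). Against tc;Sf1ESCs the log2 fold change was 4.71 (SE 0.42, edgeR adjusted p = 4.4e-05). With only 6 counts in the tc;Sf1ESCs, the ratio of summed counts, scaled by library totals, was 26.4 with a 95% counting interval of 11.9 to 72.9. Between the ESC lines Wnt4 was not called (log2 fold change -0.77, SE 0.61), and the interval of that ratio was 0.173 to 1.68. The 250 bases before a RefSeq start of Wnt4 were 85.2% G and C, against a median of 52.4% over 32851 RefSeq promoters. They held 44 CG dinucleotides, and 146 of the 250 bases lie within exons of the longer GENCODE gene. The 104 bases before that gene are printed here, with CG dinucleotides in capitals (chr4:137277385-137277488, GRCm38.p6, RefSeq). The last capital C belongs to a CG whose G is the first exon base, which is not printed.
Wnt4: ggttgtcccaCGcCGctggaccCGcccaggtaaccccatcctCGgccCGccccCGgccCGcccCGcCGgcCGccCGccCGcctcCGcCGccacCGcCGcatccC

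Rspo1 (chromosome 4, 124986430 to 125009099, plus strand) encodes the secreted R-spondin that amplifies Wnt signalling in the XX gonad. Its counts were 64 and 73 in the tcESCs, 19 and 17 in the tc;Sf1ESCs, 18 and 39 in the SCLCs and 72 and 91 in the tod-PGCLCs. The tcESC and tod-PGCLC libraries were high, and the SCLC libraries overlapped those of the tc;Sf1ESCs. Rspo1 was 2.30-fold lower in SCLCs than in tcESCs (log2 fold change -1.20, SE 0.34, edgeR adjusted p = 0.015). A larger difference was present between the ESC lines, where Rspo1 was 3.59-fold lower in tc;Sf1ESCs (log2 fold change -1.84, SE 0.36, edgeR adjusted p = 0.0084). Against tc;Sf1ESCs, the SCLCs did not pass the test (log2 fold change 0.64, SE 0.39, edgeR adjusted p = 0.17), and the counting interval of the ratio was 0.989 to 2.39. The 2 SCLC libraries differed, at 0.679 and 1.34 CPM, and the result rested on them. With SCLC replicate 2 as the only SCLC library and the spread taken from the other groups, the log2 fold change against tc;Sf1ESCs was 1.06 (edgeR adjusted p = 0.011), and with SCLC replicate 1 alone it was 0.06. The decrease against tcESCs was under the fold limit with SCLC replicate 2 alone (-0.78), and it lost its call without tcESC replicate 1 or 2 (edgeR adjusted p = 0.076 and 0.064).

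Fst (chromosome 13, 114452290 to 114458951, minus strand) encodes follistatin, a secreted protein that binds and neutralises activin. Its counts were 756 and 911 in the tcESCs, 595 and 601 in the tc;Sf1ESCs, 2408 and 1976 in the SCLCs and 163 and 354 in the tod-PGCLCs. The groups did not overlap, with the order SCLC, tcESC, tc;Sf1ESC and tod-PGCLC. It was the only one of the 9 genes above 20 CPM in the ESC lines. Fst was 2.79-fold higher in SCLCs than in tcESCs (log2 fold change 1.48, SE 0.14, edgeR adjusted p = 5.2e-05). Against tc;Sf1ESCs it was 3.68-fold higher (log2 fold change 1.88, SE 0.14, edgeR adjusted p = 1.8e-05). The ESC lines differed by -0.40 (SE 0.14, edgeR adjusted p = 0.065), which was not called.

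Among the transcription factors, Runx1 (chromosome 16, 92601466 to 92826149, minus strand) is a runt-domain factor of the pregranulosa lineage and also a regulator of blood formation. Its counts were 89 and 131 in the tcESCs, 9 and 6 in the tc;Sf1ESCs, 1983 and 2581 in the SCLCs and 51 and 112 in the tod-PGCLCs. The SCLC libraries stood far above, the tc;Sf1ESC libraries far below, and the tcESC and tod-PGCLC libraries overlapped. Runx1 was 21.9-fold higher in SCLCs than in tcESCs (log2 fold change 4.45, SE 0.15, edgeR adjusted p = 6.2e-07). It was 13.6-fold lower in tc;Sf1ESCs than in tcESCs (log2 fold change -3.77, SE 0.27, edgeR adjusted p = 0.0002). From tc;Sf1ESCs to SCLCs the difference was 298-fold (log2 fold change 8.22, SE 0.22, edgeR adjusted p = 2.5e-07). The 15 counts of the tc;Sf1ESCs set the precision of that value, and the counting interval of the ratio was 178 to 525. The median log2 fold change over the 502 genes tested on chromosome 16 was -0.46 between the ESC lines and -0.52 in SCLCs against tcESCs, and the part of this shift in the Runx1 values was not tested. In SCLCs against tc;Sf1ESCs it was -0.10.

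Runx1 is transcribed from a distal and a proximal promoter, and the gene counts do not separate them. The distal window was 45.6% G and C with 2 CG dinucleotides in 250 bases, and the proximal window was 67.6% with 27. The 75 bases of the distal window within GENCODE exons are not printed, and its 2 CG dinucleotides lie there. Both windows are shown outside annotated exons, on the minus strand with CG dinucleotides in capitals, because the gene with the largest change had promoters of such different composition (chr16:92826150-92826324 and chr16:92697330-92697579, GRCm38.p6, RefSeq).
Runx1 distal: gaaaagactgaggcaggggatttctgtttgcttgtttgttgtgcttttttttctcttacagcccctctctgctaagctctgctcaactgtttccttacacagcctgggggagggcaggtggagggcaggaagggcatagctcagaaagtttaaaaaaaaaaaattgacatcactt
Runx1 proximal: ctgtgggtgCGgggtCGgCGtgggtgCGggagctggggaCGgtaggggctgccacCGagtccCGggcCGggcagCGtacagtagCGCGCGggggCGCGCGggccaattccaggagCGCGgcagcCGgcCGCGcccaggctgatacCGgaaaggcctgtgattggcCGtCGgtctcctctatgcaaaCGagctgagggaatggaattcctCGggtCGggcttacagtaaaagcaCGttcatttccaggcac

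Irx3 (chromosome 8, 91798525 to 91802067, minus strand) and Irx5 (chromosome 8, 92357625 to 92376286, plus strand) are Iroquois homeobox factors expressed in granulosa cells, and they lie in the same gene cluster. The counts of Irx3 were 7 and 18 in the tcESCs, 10 and 25 in the tc;Sf1ESCs, 143 and 266 in the SCLCs and 85 and 124 in the tod-PGCLCs. The SCLC libraries were highest, followed by the tod-PGCLC libraries, and the ESC lines overlapped. Irx3 was 17.1-fold higher in SCLCs than in tcESCs (log2 fold change 4.09, SE 0.49, edgeR adjusted p = 0.00021). Against tc;Sf1ESCs it was 11.5-fold higher (log2 fold change 3.53, SE 0.46, edgeR adjusted p = 0.00034). The size depended on the ESC libraries: against tcESCs it was 4.75 without tcESC replicate 2, and against tc;Sf1ESCs it was 4.26 without tc;Sf1ESC replicate 2, both still called. Between the ESC lines it was not called (log2 fold change 0.57, SE 0.61), and the counting interval of their ratio was 0.852 to 2.55. That value was 1.23 without tcESC replicate 2 and -0.18 without tc;Sf1ESC replicate 2.

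The counts of Irx5 were 11 and 13 in the tcESCs, 27 and 29 in the tc;Sf1ESCs, 28 and 29 in the SCLCs and 51 and 47 in the tod-PGCLCs. The tcESC libraries were lowest and the tod-PGCLC libraries highest, with the tc;Sf1ESC and SCLC libraries together between them. Irx5 was 2.49-fold higher in SCLCs than in tcESCs (log2 fold change 1.32, SE 0.31, edgeR adjusted p = 0.0063). The ESC lines already differed by 1.29 (SE 0.31, edgeR adjusted p = 0.018). SCLCs and tc;Sf1ESCs differed by 0.02 (SE 0.27, edgeR adjusted p = 0.94), and the counting interval of the ratio, 0.667 to 1.45, does not reach the fold limit in either direction. The median over the 864 genes tested on chromosome 8 was 0.58 in SCLCs against tcESCs and 0.47 between the ESC lines, and its part in the Irx5 and Irx3 values was not tested. It was 0.04 in SCLCs against tc;Sf1ESCs, where Irx3 was called and Irx5 was not.

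Foxl2 (chromosome 9, 98955288 to 98958543, plus strand) encodes the forkhead factor that maintains granulosa cell identity. Its counts were 8 and 4 in the tcESCs, 5 and 2 in the tc;Sf1ESCs, 8 and 6 in the SCLCs and 7 and 8 in the tod-PGCLCs. No group stood apart, and the ratio of SCLCs to tcESCs was 1.18 with a counting interval of 0.505 to 2.79. A difference from tc;Sf1ESCs was not detectable at this depth, the interval of that ratio being 0.728 to 5.65. Cyp19a1, the aromatase gene that Foxl2 activates in granulosa cells, had at most 2 counts in any library.

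Of the oestrogen receptors, Esr1 (chromosome 10, 4611593 to 5005614, plus strand) had 4 and 7 counts in the tcESCs, 3 and 5 in the tc;Sf1ESCs, 11 and 6 in the SCLCs and 9 and 3 in the tod-PGCLCs. Esr2 (chromosome 12, 76120419 to 76177259, minus strand), the main receptor of granulosa cells, had 5 and 2, 1 and 2, 3 and 0, and 3 and 3 counts in the same order. Esr2 was thus at or under the floor of 3 counts in every library but 1 tcESC library. The ratio of SCLCs to tcESCs for Esr1 was 1.56 with a counting interval of 0.689 to 3.68, so that no difference was detectable at this depth. When every gene with at least 1 count was fitted, the edgeR adjusted p of Foxl2, Esr1 and Esr2 ran from 0.30 to 1 over the 5 comparisons and none was called.

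**Figure D2:**
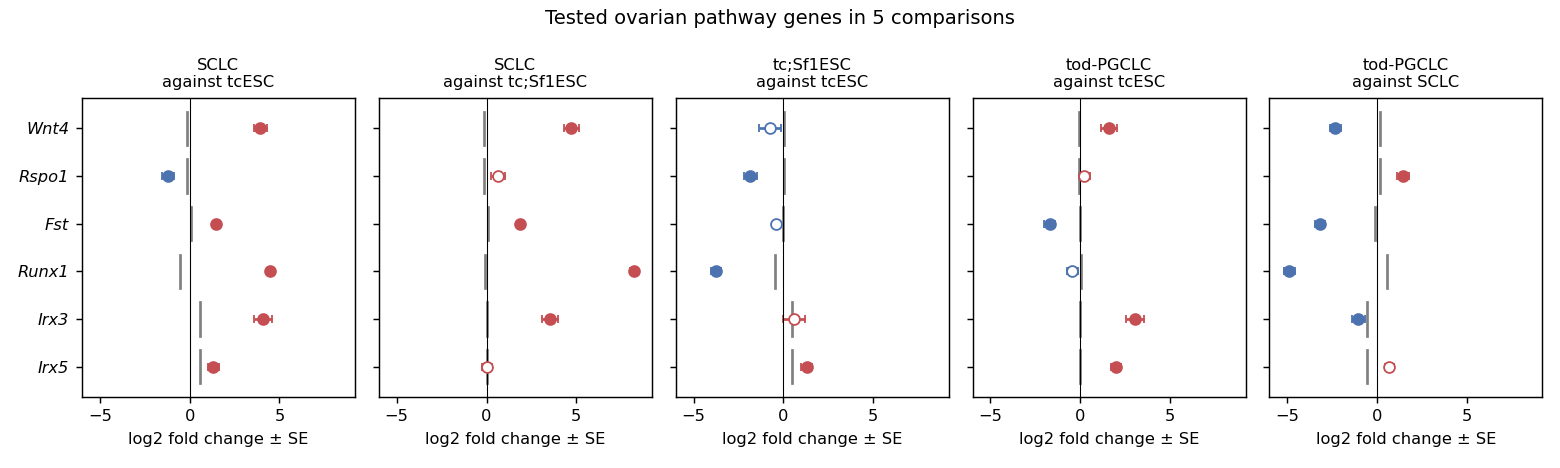
Log2 fold change with its standard error for the 6 tested genes in 5 comparisons, with filled points called and open points not called. Red and blue mark higher and lower in the first group, and the grey ticks give the median of all genes tested on the same chromosome. Runx1 spans -4.89 to 8.22, and Irx5 sits at 0.02 in SCLCs against tc;Sf1ESCs.

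Between the ESC lines, 3 of the 6 tested genes were called: Irx5 was higher in tc;Sf1ESCs, and Rspo1 and Runx1 were lower. Among all genes, 6.04% were called higher and 5.62% lower. The calls of Rspo1 and Irx5 did not hold when any of the 4 ESC libraries was left out, which left 1 of the 6 genes called, Runx1. The edgeR adjusted p was then 0.058 to 0.078 for Rspo1 and 0.092 to 0.11 for Irx5, with the log2 fold changes at -1.96 to -1.72 and 1.27 to 1.31.

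Compared per kilobase of exon, the order within a group could be read between genes. In the SCLCs, Fst stood at 17.3 ± 3.53 CPM per kilobase (SD, n = 2), Runx1 at 6.80 ± 0.817, and Irx3 at 2.63 ± 0.959. Wnt4 (0.698 ± 0.172) and Rspo1 (0.521 ± 0.241) overlapped, and Irx5 followed at 0.328 ± 0.0135. Foxl2 had 0.0780 ± 0.0208 CPM per kilobase in the same libraries. In the tcESCs the order began with Fst (6.48 ± 0.00885), Rspo1 (1.26 ± 0.0508) and Runx1 (0.323 ± 0.0451), and Irx3 and Irx5 overlapped below them. In the tc;Sf1ESCs, Fst stood at 4.87 ± 0.190 and no other gene exceeded 0.378 CPM per kilobase in a library. Among these, Rspo1 overlapped both Irx5 and Irx3, and Foxl2 overlapped both Wnt4 and Runx1. In the tod-PGCLCs, Fst (2.10 ± 1.14), Rspo1 (1.56 ± 0.296) and Irx3 (1.40 ± 0.405) overlapped at the top of the order. These levels depend on the exon length used: with the longest coding transcript, Runx1 in the SCLCs was 13.9 and Fst 28 CPM per kilobase.

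In the tod-PGCLCs, Wnt4, Irx3 and Irx5 were called higher than in tcESCs and Fst lower, 4 of the 6 tested genes. In this fit too, Wnt4 passed the filter on mean counts through its SCLC counts alone. Over the 16707 genes tested with all 8 libraries, 18.1% passed as higher and 11.2% as lower. Irx3 was 8.27-fold higher (log2 fold change 3.05, SE 0.50, edgeR adjusted p = 0.00074) and Irx5 3.99-fold higher (2, SE 0.28, edgeR adjusted p = 0.00032). Without tcESC replicate 2 the value of Irx3 was 3.67. Wnt4 was 3.01-fold higher (1.59, SE 0.43, edgeR adjusted p = 0.011), a call lost without tcESC replicate 1 (edgeR adjusted p = 0.071). Fst fell by 1.70 on the log2 scale (SE 0.30, edgeR adjusted p = 0.0011), and by 2.39 without tod-PGCLC replicate 2, its libraries standing at 5.92 and 13.3 CPM. Rspo1 did not pass the test (0.23, SE 0.30, edgeR adjusted p = 0.53). Runx1 was not called (-0.44, SE 0.32, edgeR adjusted p = 0.26), and its tod-PGCLC libraries differed, at 1.85 and 4.22 CPM. With tod-PGCLC replicate 1 as the only tod-PGCLC library and the spread taken from the other groups, its value was -1.14 (edgeR adjusted p = 0.0064), and with tod-PGCLC replicate 2 alone it was 0.04.

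Against SCLCs, the tod-PGCLCs had lower Wnt4, Fst, Runx1 and Irx3 and higher Rspo1, 5 of 6 tested genes. Among all genes, 18.5% were called higher and 19.5% lower. Wnt4, which passed the filter through its SCLC counts alone, is among the 5, so this number supports no statement about the list. Runx1 was 29.6-fold lower (log2 fold change -4.89, SE 0.29, edgeR adjusted p = 1.3e-06) and Fst 9.06-fold lower (-3.18, SE 0.30, edgeR adjusted p = 2e-05). Without tod-PGCLC replicate 2, these values were -5.59 and -3.87. Wnt4 was 5.09-fold lower (-2.35, SE 0.31, edgeR adjusted p = 0.00014). Irx3 was 2.06-fold lower (-1.04, SE 0.38, edgeR adjusted p = 0.035), and it was not called without SCLC replicate 2 (-0.62) or without tod-PGCLC replicate 1 (-0.77). Rspo1 was 2.70-fold higher (1.43, SE 0.33, edgeR adjusted p = 0.0041). Irx5 differed by 0.68 (SE 0.25, edgeR adjusted p = 0.036), under the fold limit. The chromosome medians in this comparison were -0.54 on chromosome 8 and 0.53 on chromosome 16, and their part in the Irx3, Irx5 and Runx1 values was not tested. This comparison shares the SCLC libraries with the comparisons against ESCs, so the directions are not independent.

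Other genes of the pathway were read from lists of receptors, targets and partners. As for Wnt4, some of them passed the filter through their SCLC counts alone, with a mean of at most 10 counts in the ESC lines, and they are named with each list. Of the 23 genes of R-spondin and Wnt reception, 20 were tested in SCLCs against tc;Sf1ESCs. Of these, 9 were called higher and 4 lower, against 24.1% and 18.1% of all genes. Their median log2 fold change was 0.76 against 0.02 over all genes. Porcn, which attaches the lipid that Wnt ligands need for secretion, rose by 2.67 (SE 0.21), and the Wnt receptor Fzd4 by 2.33 (SE 0.18). Both had been called lower in tc;Sf1ESCs than in tcESCs (-1.88 and -1.38), and in SCLCs against tcESCs neither was called (0.79 and 0.95). The receptor Fzd10 fell by 5.29 on the log2 scale (SE 0.18) and Lgr6, a receptor for R-spondins, by 2.53 (SE 0.29). Lgr5, an R-spondin receptor of fetal pregranulosa cells named here after its values were seen, had no counts in tc;Sf1ESCs and 88 and 64 in SCLCs, at least 24.6-fold higher against 3 counts per library. It was the gene of this list that passed the filter through its SCLC counts alone, and the median of the other 19 was 0.56. Against tcESCs, 7 of these 20 were called higher in the SCLCs and 4 lower, near or above the 24.3% and 18.3% of all genes.

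The beta-catenin targets and feedback genes moved mostly the other way. All 10 were tested, and in SCLCs against tc;Sf1ESCs 2 were called higher and 7 lower, against 24.1% and 18.1% of all genes. The median log2 fold change was -2.92, against 0.02 over all genes. Sp5, a transcription factor induced by Wnt signalling, was at 75.1 and 71.3 CPM in tc;Sf1ESCs and at 0.641 and 0.344 CPM in SCLCs (log2 fold change -7.17, SE 0.18). Notum, a secreted enzyme that inactivates Wnt ligands, was at 106 and 105 CPM against 0.792 and 1.07 CPM (-6.76, SE 0.13). Axin2, the standard readout of the pathway, was at 150.3 and 151 CPM against 10.9 and 13.2 CPM (-3.59, SE 0.10). Dkk1, a secreted antagonist of Wnt signalling, rose by 4.19 (SE 0.33), and Sp8 by 1.11 (SE 0.26). The ESC lines also differed, with 6 of the 10 called higher in tc;Sf1ESCs and none lower, against 6.04% and 5.62% of all genes. In SCLCs against tcESCs, 4 were called higher and 6 lower, against 24.3% and 18.3% of all genes. In these libraries, higher Wnt4 thus stood beside lower Axin2, Sp5 and Notum. CHIR99021, which acts on the same pathway, was used in both ESC and TesLC cultures. The media differed in other components, and medium and cell type cannot be told apart.

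Of 11 genes of activin, inhibin and related signalling, which follistatin acts on, 8 were tested against tc;Sf1ESCs. Their median was 3.85, with 5 called higher and none lower, against 24.1% and 18.1% of all genes. Inha and Fstl3 passed the filter through their SCLC counts alone, and of the other 6 genes 3 were called higher, with a median of 2.09. The activin receptors Acvr1b, Acvr2a and Acvr2b were not called (-0.18, 0.77 and 0.72). Against tcESCs, 4 of the 8 were called higher and none lower, against 24.3% and 18.3% of all genes. Fstl3, a relative of Fst that also binds activin, was called higher, with 1 count in each tc;Sf1ESC library and 75 and 167 in the SCLCs. The ratio was 117 with a counting interval of 31.9 to 969. Bmp2, a ligand made by pregranulosa cells, rose by 5.62 (SE 0.22), from 0.887 and 0.506 CPM to 31.6 and 34.6 CPM. Inha and Inhbb, the inhibin subunits, rose by 4.71 (SE 0.26) and 3.42 (SE 0.42) against tc;Sf1ESCs. Against tcESCs, Inha was called higher (5.62, SE 0.29), while Inhbb was not called (-0.46, SE 0.32), and it had been called lower in tc;Sf1ESCs than in tcESCs (-3.88, SE 0.41). Inhba, which forms activin A, had 24 and 13 counts in the SCLCs and none in either ESC line.

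Among 13 other granulosa lineage genes, 9 were tested and 2 were called higher and 3 lower in SCLCs against tc;Sf1ESCs, with a median of 0.42, while 24.1% of all genes were called higher and 18.1% lower. Bmp2 and Lgr5, which stand in 2 of the lists, were the genes called higher. Lgr5 passed the filter through its SCLC counts alone, and of the other 8 genes 1 was called higher and 3 lower, with a median of 0.02, as over all genes. Jag1, a Notch ligand, fell by 3.99 on the log2 scale (SE 0.11) and Nr5a2, a nuclear receptor of granulosa cells that ESCs also express, by 3.95 (SE 0.22). Of the 8 relatives and partners of the transcription factors, 6 were tested, and Runx2, Runx3 and Irx4 were called higher and Irx2 lower, with a median of 2.63. Runx2, Irx1 and Irx4 passed the filter through their SCLC counts alone, and of the other 3 genes Runx3 was called higher and Irx2 lower, with a median of -0.80. Runx3 was at 0.849 and 0.542 CPM in tc;Sf1ESCs and at 12.9 and 12.3 CPM in SCLCs (4.23, SE 0.23). Irx2, which lies in the other Iroquois cluster, changed by -1.38 (SE 0.16) against tc;Sf1ESCs and by -0.23 (SE 0.16) against tcESCs.

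Of 10 oestrogen receptor partners and response genes, 9 were tested against tc;Sf1ESCs. Of the 9, 4 were called higher and 1 lower, against 24.1% and 18.1% of all genes. Their median was -0.14, against 0.02 over all genes. Greb1, a gene induced by oestrogen in breast cells, rose by 4.05 (SE 0.20), and the corepressor Nrip1 by 1.35 (SE 0.11). Greb1 had been called lower in tc;Sf1ESCs than in tcESCs (-2.69, SE 0.20), and it rose by 1.36 (SE 0.16) from tcESCs to SCLCs. Esrrb, the gene called lower (-3.54, SE 0.28), is an orphan receptor of pluripotent cells and stands in their marker list too. These values stood beside Esr1 and Esr2 counts of at most 11 in every library.

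On the testis side, 10 of 14 genes were tested against tc;Sf1ESCs, with 6 called higher, 2 lower and a median of 1.79. Among all genes, 24.1% were called higher and 18.1% lower. Sox9, on whose enhancer the cells were sorted and which passed the filter through its SCLC counts alone, is among the 6, and without it 5 of 9 were called higher and 2 lower, with a median of 1.21. Gadd45g, which acts upstream of Sry, rose by 6.24 (SE 0.30) and Gata4, a factor of the gonad and also of endoderm, by 6.05 (SE 0.09). Nr0b1 and Zfpm2, the partner of Gata4, fell by 4.6 (SE 0.12) and 3.55 (SE 0.32) on the log2 scale. The paper lists Nr0b1 with granulosa cell genes, so its count on the testis side depends on the list used. Nr0b1 was also lower in SCLCs than in tcESCs (-5.28, SE 0.12) and higher in tod-PGCLCs than in SCLCs (4.66, SE 0.12). Genes of both sides were thus called higher in the same libraries, and each side also held genes that were called lower or stayed near the floor.

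**Figure D3:**
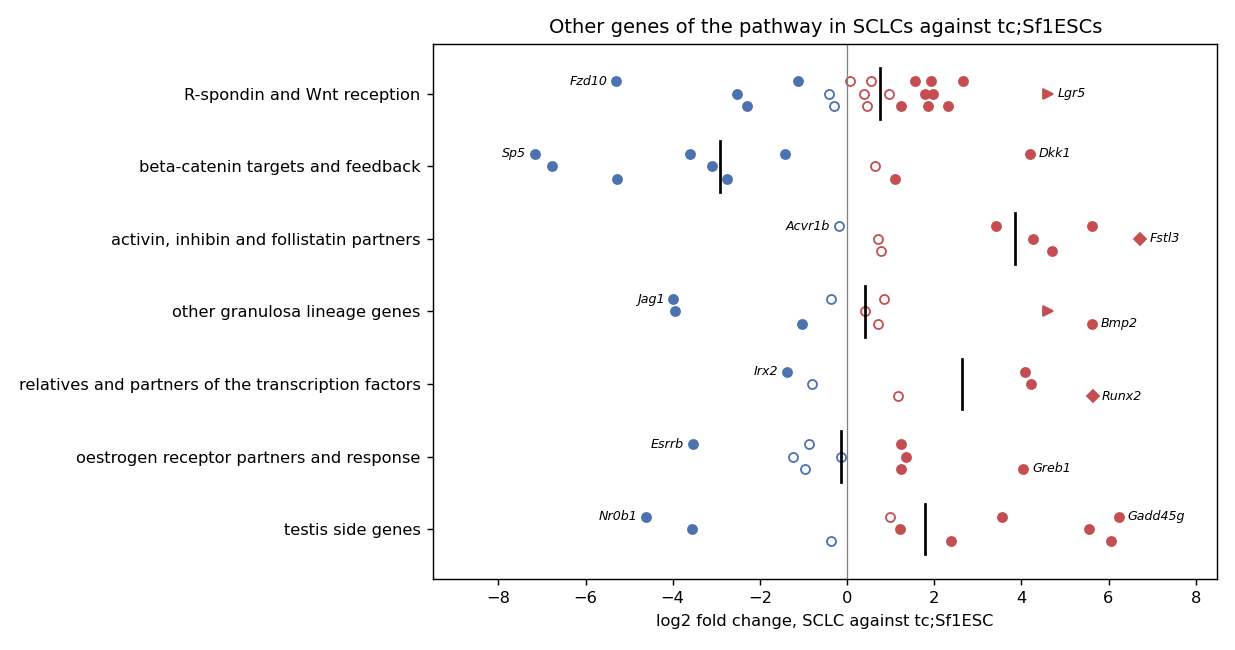
Log2 fold change in SCLCs against tc;Sf1ESCs of the tested genes in 7 lists, a point per gene, filled where called and open where not, with black bars at the medians of all tested genes, those that passed the filter through SCLC counts alone included. The triangles mark Lgr5, a lower bound computed against 3 counts, and diamonds mark genes with at most 3 counts in each tc;Sf1ESC library, whose fitted values are imprecise. The beta-catenin targets lie mostly left of zero, down to -7.17 for Sp5, and the 5 called follistatin partners lie to the right of it.

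Markers of other cell types moved with these genes. Of the 11 primitive and visceral endoderm markers, Foxa2, Afp, Ttr and Apoa1 passed the filter through their SCLC counts alone. The other 7 were called higher in SCLCs than in either ESC line, where 24.3% (tcESCs) and 24.1% (tc;Sf1ESCs) of all genes were called higher. The summed level of all 11 was 1992 and 3473 CPM in the SCLCs, 9.42 to 15.8 CPM in the ESC lines and 34.3 and 44.1 CPM in the tod-PGCLCs. None of the 11 was at the floor in the SCLCs. The summed Sertoli cell list stood at 526 and 542 CPM in the SCLCs, of which Gata4 made 415 and 431 CPM. In the tod-PGCLCs it stood at 122 and 148 CPM, of which Dmrt1 made 99.8 and 122 CPM. The ESC lines had 15.5 to 20.9 CPM. Both sums thus had SCLCs highest and tod-PGCLCs second, as had Wnt4 and Irx3. Different genes made most of the Sertoli sum in the 2 groups. Of its 10 markers tested in tod-PGCLCs against SCLCs, 3 were called higher, Dmrt1 among them, and 5 lower, against 18.5% and 19.5% of all genes. The summed gonadal stroma and steroidogenic list stood at 755 and 895 CPM in the SCLCs and at 11.1 to 22.8 CPM in the other groups, with Hsd3b1 at the floor. Pdgfra alone made 735 and 872 CPM of the SCLC sums. Of the 5 genes tested against tc;Sf1ESCs, Cyp11a1 and Cyp17a1 passed the filter through their SCLC counts alone. Of the other 3, Pdgfra and Nr2f2 were called higher and Star lower (-1.25, SE 0.18). The intermediate mesoderm and kidney list summed to 11.4 and 11.6 CPM in the SCLCs and to 24.8 to 47.0 CPM in the ESC lines. Of its 5 genes tested against tc;Sf1ESCs, 3 were called higher and 2 lower. Of the 3, 2 passed the filter through their SCLC counts alone. The part of any of these lists in the values of Wnt4, Fst, Runx1 and Irx3 was not tested. For Runx1, the blood and endothelium list summed to 96.6 to 103 CPM in the SCLCs and 98.5 to 124 CPM in the ESC lines, and this sum joined opposite differences. Pecam1, which ESCs also express, stood at 90.5 to 116 CPM in the ESC lines and at 70.5 and 22.7 CPM in the SCLCs. Cdh5, the cadherin of endothelial cells, had 1 to 3 counts in each ESC library and 784 and 2043 in the SCLCs (29.6 and 70.2 CPM). It passed the filter through its SCLC counts alone, and none of the other 4 genes tested by edgeR from this list of 8 was called higher. Its ratio against tc;Sf1ESCs was 545 with a counting interval of 233 to 1680. Tal1, Ptprc and Hbb-bh1, which mark blood cells, were at or under 3 counts in both SCLC libraries. The part of Cdh5-expressing cells in the Runx1 values was not tested. The pluripotent cell list summed to 610 and 874 CPM in the SCLCs and 4957 to 5427 CPM in the ESC lines. Of its 8 markers, 7 were called lower than in either ESC line, where 18.3% (tcESCs) and 18.1% (tc;Sf1ESCs) of all genes were called lower.

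**Figure D4:**
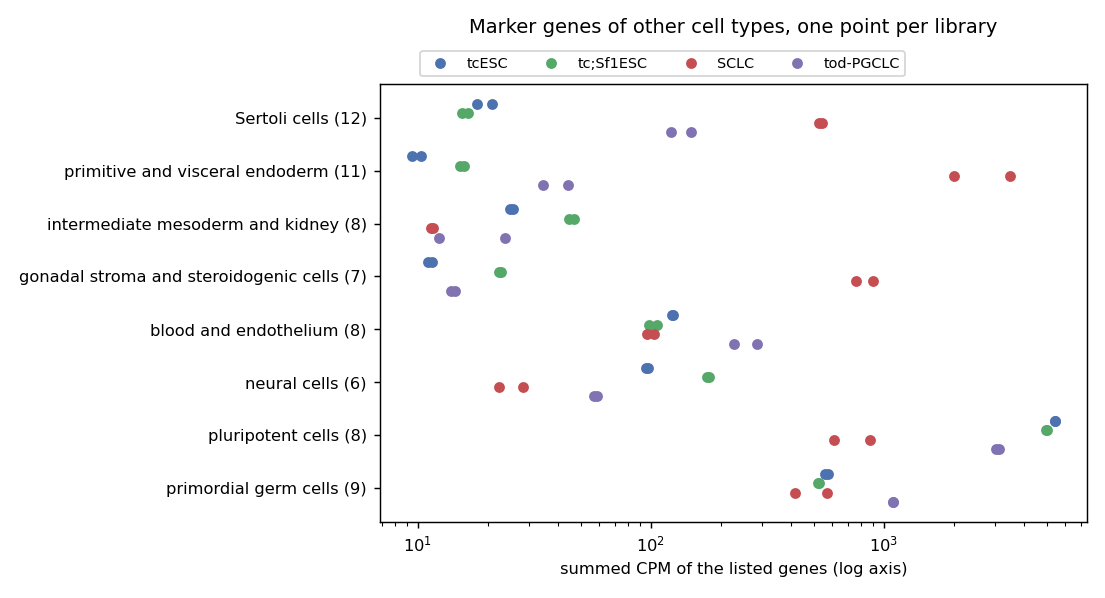
Summed CPM of 8 lists of marker genes on a log axis, with a point per library and the number of genes in brackets. The endoderm list in the SCLCs stood at 1992 and 3473 CPM, against 9.42 to 44.1 CPM in the other groups.

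Some of the genes overlap others on the opposite strand. The paper describes the cDNA as strand-specific, but whether the counting used the strand is not given in the sources used here. Irx3os shares 124 bases, 4.49% of the exons of Irx3, and had 0 and 0, 1 and 2, 30 and 48, and 8 and 8 counts in tcESCs, tc;Sf1ESCs, SCLCs and tod-PGCLCs, the same order of groups as Irx3. Gm26626, antisense to Runx1 over 106 bases, had 11 and 21 counts in the SCLCs and at most 1 elsewhere. Foxl2os shares 12 bases with Foxl2 and had 10 to 26 counts in each library, more than Foxl2 in every one. How reads in the shared bases of these pairs were assigned is therefore not known.

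The genes with the most similar pattern were sought over the 8 libraries among 14292 genes averaging 1 CPM or more, by the distance between centred log2 CPM values. For Runx1 these were Oaf, Lamb1 and Gsn, at distances of 1.95, 2.04 and 2.20 on the log2 scale, which were the least close of those found. Lamb1 encodes a laminin chain of basement membranes and Gsn an actin-severing protein. For Irx3 they were Rem2, Gpc3 and Pgf, at 1.03 to 1.07. The closest to Fst was Pde1b (0.77), to Rspo1 Wipf3 (0.34), and to Irx5 Adam19 (0.36). The 8 points of each pattern share their libraries and groups, so these distances are a description.

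For 7 of the 9 genes, the 250 bases before RefSeq starts, 9 windows in all, were searched on both strands for 6 motifs. RefSeq and GENCODE starts differ, and the windows of Foxl2 and Irx3 and 1 of those of Esr1 lie wholly within GENCODE exons of these genes. They were ATCAAAG of TCF/LEF factors, CAAGGTCA of NR5A1, AGATAA of GATA factors, TGTGGT of RUNX factors, TGTTTAC of forkhead factors and the oestrogen response element. The only match was TGTGGT in the Esr2 window, 78 to 73 bases before the RefSeq start. Over all 32851 promoters, the motifs occurred in 3.21%, 1.33%, 9.99%, 14%, 3.17% and 0.0639% in the same order. No match says only that these letters are not in these windows.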

How the data were processed

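RNA was sequenced from tcESCs, tc;Sf1ESCs, SCLCs and tod-PGCLCs. The authors trimmed reads (Trim Galore), aligned them to GRCm38 (STAR 2.4.0) and deposited counts per gene, not normalized (HTSeq; Picard is also listed in the submitters' processing notes). Rows naming no gene held 35.6 to 41.6% of the reads, 20.5 to 27.5% being not unique, and were left out. Of 46078 gene IDs, 45143 were named with GENCODE M21.

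Counts were tested with edgeR 4.0.16 in R 4.3.3 (TMM, quasi-likelihood, Benjamini-Hochberg). One fit held 6 libraries, without the tod-PGCLCs, and a second fit held all 8 for comparisons with tod-PGCLCs. Ratios of summed counts carry exact 95% intervals. CPM used the total on genes, and levels between genes were divided by exon length. The code was tested on simulated data. Replicate numbers did not pair the samples, with correlations of -0.0259 to 0.0624, and no 2 libraries of a group agreed within sampling noise.

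The genes and lists were chosen with earlier results of these data known. Of each list, the text names up to 2 genes called higher and 2 lower with the largest fold against tc;Sf1ESCs, with a mean of at least 1 CPM and libraries that do not overlap. Amh, Axin2, Cyp19a1, Dhh, Inha, Inhba, Inhbb, Acvr1b, Acvr2a, Acvr2b, Irx1, Lgr5, Cdh5, Cldn11, Pecam1, Pdgfra, Nr2f2, Star, Cyp11a1, Cyp17a1, Foxa2, Afp, Ttr, Apoa1, Runx2, Irx4, Dmrt1, Prdm1 and the overlapping antisense genes were added after their values were seen. Alternatives were RLE factors, library totals, other filters and fits, DESeq2 1.42.0, a limit of 0.01, a replicate block and leaving out each library, whose group then takes its spread from the others.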

Additional observations from a re-analysis of the deposited data

How the results depend on the processing

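Over the log2 fold changes of the 6 tested genes in 5 comparisons, 249 of 257 values under other normalizations, filters, fits, tools and limits kept their direction and call, 6 lost the call and 2 changed sign. Leaving out 1 library kept 184 of 204, with 14 weaker, 2 newly called and 4 of changed sign. Of those that changed sign, Irx5 in SCLCs against tc;Sf1ESCs was -0.0258 with library totals only and -0.0169 with the filterByExpr filter, and ran from -0.0253 to 0.0601 with 1 library left out. Irx3 between the ESC lines ran from -0.178 to 1.23, and Runx1 in tod-PGCLCs against tcESCs from -1.14 to 0.0446. Between the ESC lines, the genes called ran from 1 to 3 of the 6 and all genes called from 1119 to 2304 with 1 library left out and so fewer samples fitted, against 3 and 1922 with all libraries. Irx5 between the ESC lines had an adjusted p of 0.083 in DESeq2, and Irx3 in tod-PGCLCs against SCLCs 0.056 with library totals only. At an adjusted p under 0.01, Rspo1 in SCLCs against tcESCs, Irx5 between the ESC lines, Wnt4 in tod-PGCLCs against tcESCs and Irx3 in tod-PGCLCs against SCLCs were not called. With the replicate block, 6, 4, 3, 4 and 5 genes were called in the 5 comparisons, as without it; the samples share only a number, and the block gave 7023, 6958, 1918, 4893 and 6313 calls over all genes against 7033, 6955, 1922, 4906 and 6346. TMM-scaled CPM moved 5 of 36 mean levels by more than 1 SD, and the longest coding transcript 17 of 36 levels per kilobase. At counts of at most 11, differences in Foxl2, Esr1 and Esr2 were not detectable at this depth.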
